A study of Mus musculus with 6 samples.

Results

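The genes described here are the Wnt ligands, their Frizzled receptors and the secreted proteins that modulate them, measured by mRNA sequencing in whole mouse kidneys at the embryonic stage E13.5. They were chosen by symbol alone (Wnt, Fzd, Sfrp, Rspo and Dkk followed by a number, and Wif1). This gave 38 of the 22394 genes in the table, with 16 Wnt ligands, 10 Frizzleds, 4 secreted Frizzled-related proteins, 4 R-spondins, 3 Dickkopfs and Wif1. The 3 mutant libraries came from Foxd1Cre;Ptch1 (flox/-) embryos, in which Cre is made from Foxd1, a gene active in stromal progenitors of the kidney, while Ptch1 has 1 floxed and 1 null allele. The 3 control libraries came from Ptch1 (flox/+) littermates, which carried a floxed allele without Cre. Ptch1 restrains the Hedgehog pathway, so the comparison asks how transcript levels differ when that restraint is removed from the Foxd1 lineage. The mutants also carried Cre, and 1 Ptch1 allele was null in all of their cells, so effects of either cannot be told apart from loss of Ptch1 in the lineage.

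Wnt proteins are lipid-modified secreted ligands that bind Frizzled receptors, and with the co-receptors Lrp5 and Lrp6 they stabilise beta-catenin, while other Wnt-Frizzled pairs act through cell polarity pathways. Secreted Frizzled-related proteins and Wif1 bind Wnts outside the cell, Dickkopf proteins act on the co-receptors, and R-spondins raise signalling by keeping Frizzleds at the cell surface. In the developing kidney the ureteric bud makes Wnt9b and Wnt11, forming nephrons make Wnt4, and the collecting duct makes Wnt7b, so these signals pass between epithelium, nephron progenitors and stroma.

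The libraries held 13261588 reads (mutant 2) to 47847925 reads (mutant 3), and all 38 genes are given as FPKM, reads scaled to gene length and depth. Kidney identity was checked on markers. Nephron progenitor genes summed to between 301.5 and 438 FPKM in each library, and those of the ureteric tip to between 115 and 156 FPKM. Ptch1 itself was at 7.60 to 8.26 FPKM in controls and 23.5 to 35.8 FPKM in mutants, which does not check the deletion, since the gene is also induced by Hedgehog signalling. Controls 1 and 3 had almost no Y-linked Ddx3y (0.0598 and 0.0177 FPKM), while control 2 and the 3 mutants had 13.9 to 17.8 FPKM, so the sexes were not balanced between the groups. X-linked Xist was at 72.9 and 53.3 FPKM in controls 1 and 3 and at 0.0471 FPKM in control 2. In mutants 1 to 3 it was at 0.103, 0.206 and 6.19 FPKM. Mutant 3 thus held both transcripts, and the reason was not tested. Any fit without control 2 compares mutants that had Ddx3y with controls that had almost none. Genotype and sex cannot be told apart in such a fit. The study's design gives 3 mutant animals with littermate controls, and whether each control library came from its own animal is not given, so p-values measure the spread between these libraries. In whole kidney, fewer cells of a type and less RNA per cell cannot be told apart.

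No Wnt ligand, Frizzled or secreted modulator gene passed the test over all genes. The test was limma on log2(normalized count + 1), where a normalized count is reads divided by a library size factor, with Benjamini-Hochberg adjusted p under 0.05 as the threshold. Of the 38 genes, 33 reached 10 normalized counts in 3 or more libraries and were tested, and 0 were called, against 0.307% of all 16933 genes tested. At an unadjusted p under 0.05 there were 4, namely Wnt5a, Dkk3, Fzd6 and Wif1, all higher in mutants. That is 12.1% of the 33, where the background was 9.63% in either direction and 5.26% for higher in mutants. The mutant and control values did not overlap for 3 of the 33 genes (9.09%), all higher in mutants, against a background of 16.7% in either direction and 7.57% for mutants higher. limma's voom on the recovered reads also called 0 of the 33, with 5 at an unadjusted p under 0.05 (the share of all genes under voom is not given). The authors' deposited table called 3 of the 32 genes that it gave an adjusted p (Wif1, Dkk3 and Wnt5a, all higher), or 9.38% against a background of 4.61% in either direction and 3.07% for higher.

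**Figure D1:**
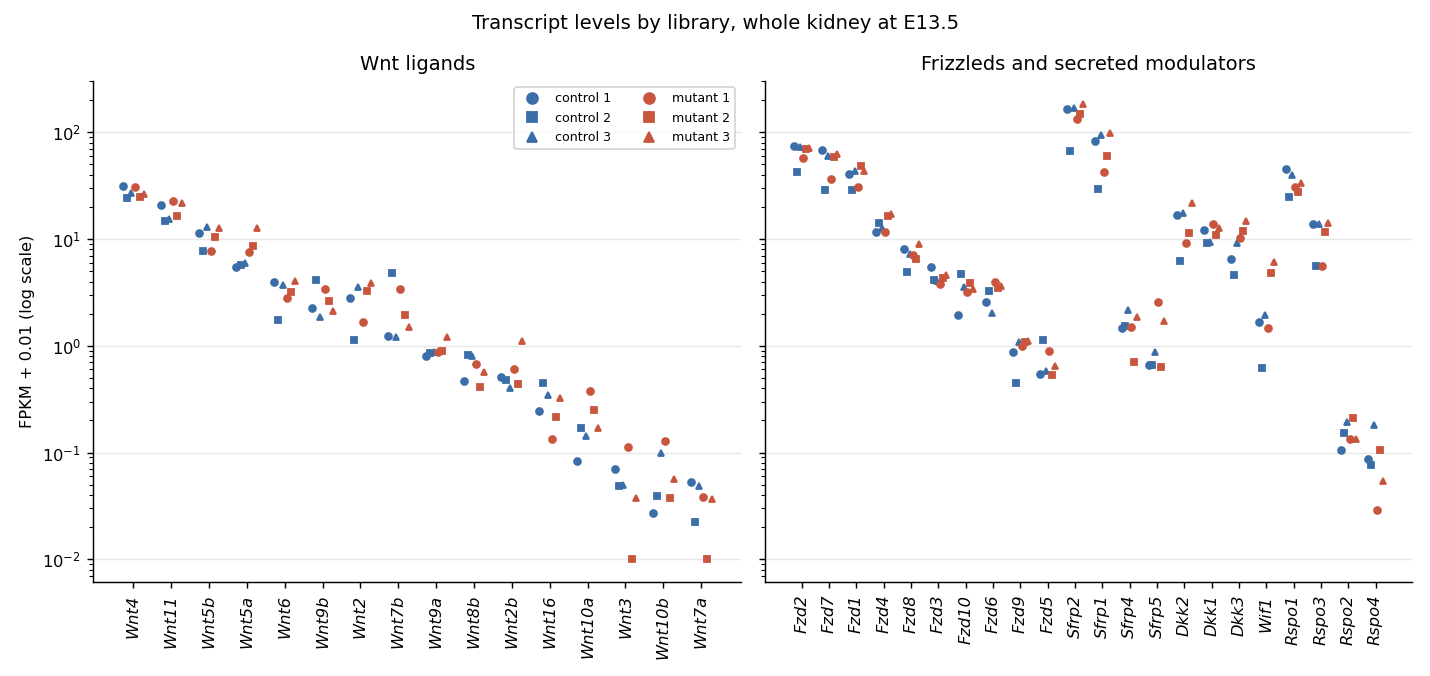
FPKM plus 0.01 on a log axis for the 38 genes, with 1 point per library (blue for controls, red for mutants; circles, squares and triangles for libraries 1, 2 and 3). Levels span from Sfrp2, at 67.0 FPKM or more in every library, to Wnt7a, at 0.0433 FPKM or less, and the square of control 2 lies apart for Sfrp1, Sfrp2, Dkk2, Wif1 and Wnt7b.

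Among the ligands, Wnt4 and Wnt11 were the most abundant transcripts in every library. Wnt4, which drives the conversion of nephron progenitors to epithelium, was at 31.0, 24.5 and 27.1 FPKM in controls 1 to 3 and at 30.9, 24.6 and 26.3 FPKM in mutants 1 to 3. The groups covered nearly the same range (27.5 ± 3.31 and 27.3 ± 3.28 FPKM, SD, n = 3 each, as for every mean below), and the log2 fold change was -0.02 (SE 0.14). Wnt11, made by the ureteric tips and a signal back to the bud's branching, was at 20.9, 14.7 and 15.5 FPKM in controls and 22.6, 16.6 and 21.7 FPKM in mutants. Its groups overlapped (log2 fold change of 0.25 with an SE of 0.18, adjusted p = 0.623 by limma). Wnt5b was next, at 11.3, 7.67 and 13.0 FPKM in controls and 7.78, 10.5 and 12.6 FPKM in mutants, with overlapping groups. In controls the order Wnt4, Wnt11, Wnt5b and Wnt5a held without overlap of the libraries' ranges, while Wnt6, Wnt9b, Wnt2 and Wnt7b overlapped as neighbours in the order. Wnt5b shares part of its locus with Fbxl14 on the opposite strand (28.3 to 34.9 FPKM), and its value is uncertain, because the sources used here do not say whether reads were counted by strand.

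Wnt5a, a ligand best known for signalling through Ror2 and cell polarity, had the smallest p of the 33 genes. It lies on chromosome 14 from 28504750 to 28527448 (GRCm38, plus strand), overlapped on the opposite strand by Gm2670, which is not analysed here. It was at 5.46, 5.72 and 5.90 FPKM in controls and 7.60, 8.65 and 12.7 FPKM in mutants. Every mutant lay above every control, and the controls were close together while mutant 3 was well above the other mutants. The means were 5.70 ± 0.222 and 9.66 ± 2.72 FPKM, a log2 fold change of 0.73 (SE 0.19), with an unadjusted p of 0.00421 and a limma adjusted p of 0.249. With library weights in the fit the adjusted p was 0.0416, when 2.24% of all genes were called. In the authors' deposited table Wnt5a had a log2 fold change of 0.76 (adjusted p 0.0127). Wnt5a thereby made up 6.7% to 8.5% of the summed FPKM of the 16 ligands in controls and 9.2% to 14.4% in mutants.

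The ligands of the ureteric epithelium varied more between libraries of a group than between groups. Wnt9b, the bud signal that induces nephrons, was at 2.24, 4.13 and 1.86 FPKM in controls and 3.38, 2.597 and 2.09 FPKM in mutants. Wnt7b, a collecting duct signal to the medulla, was at 1.22, 4.83 and 1.19 FPKM in controls and 3.41, 1.93 and 1.503 FPKM in mutants. Both were highest in control 2 and next highest in mutant 1, and for both the groups overlapped. Wnt6, also a ligand of the bud, was at 3.96, 1.75 and 3.71 FPKM in controls and 2.77, 3.21 and 4.04 FPKM in mutants, with its lowest value in control 2. Wnt2, a canonical ligand, was at 2.80, 1.13 and 3.54 FPKM in controls and 1.66, 3.25 and 3.85 FPKM in mutants, again lowest in control 2 and low in mutant 1. The log2 fold changes of these 4 ligands were 0.03 to 0.29, each smaller than its SE of 0.31 to 0.54.

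The remaining 8 ligands were near or below 1 FPKM. Wnt9a, at 0.800, 0.853 and 0.870 FPKM in controls and 0.865, 0.878 and 1.21 FPKM in mutants, overlapped between groups. Wnt2b, a stromal ligand, was at 0.453 ± 0.0541 and 0.707 ± 0.352 FPKM, with mutant 3 (1.10 FPKM) highest and mutant 2 below 2 of the controls. Wnt8b and Wnt16 had negative log2 fold changes (-0.33, SE 0.34, and -0.67, SE 0.44) with overlapping groups. Wnt10a, Wnt10b, Wnt3 and Wnt7a were not tested. They had 13 to 69 reads in all over the 6 libraries, and Wnt3 and Wnt7a had 0 reads in mutant 2, the shallowest library. As a family, the 16 ligands summed to 81.1, 67.2 and 74.5 FPKM in controls and 82.9, 73.4 and 88.2 FPKM in mutants. The summed ligand transcript overlapped between the groups (exact two-sided permutation p = 0.3, where 0.1 is the smallest that 3 against 3 libraries can give).

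Promoters were searched for the core letters of the factors that act at the end of the Wnt and Hedgehog pathways. RefSeq promoters (GRCm38.p6, 250 bases before to 50 after the start) were matched for 26 of the 38 genes, with 29 starts. Wnt5a, Dkk3 and Fzd6 had no matched promoter and were not searched. The core letters CTTTGAT bound by the TCF/LEF factors of canonical Wnt signalling, on either strand, stood in 2 of the 29 (6.9%), against 3.73% of all 32851 promoters of this length. The core letters GGGTGGT of the Gli site, through which Hedgehog signalling acts, also stood in 2 (those of Wnt10b and Wnt8b), against 4.61% of all promoters. The 2 ligand promoters with TCF/LEF letters follow, 5′ to 3′ on the gene's strand with the match in capitals. They lie at chr7:98834862-98835161 (plus strand) for Wnt11 and at chr6:119449337-119449636 (minus strand) for 1 of 3 starts of Wnt5b.
Wnt11: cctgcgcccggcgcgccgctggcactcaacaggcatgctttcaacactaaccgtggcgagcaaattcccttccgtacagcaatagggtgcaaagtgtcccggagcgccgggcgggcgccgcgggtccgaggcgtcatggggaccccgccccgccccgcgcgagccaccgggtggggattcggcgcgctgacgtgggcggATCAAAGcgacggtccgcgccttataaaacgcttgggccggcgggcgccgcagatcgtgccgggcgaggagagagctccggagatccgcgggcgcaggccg
Wnt5b: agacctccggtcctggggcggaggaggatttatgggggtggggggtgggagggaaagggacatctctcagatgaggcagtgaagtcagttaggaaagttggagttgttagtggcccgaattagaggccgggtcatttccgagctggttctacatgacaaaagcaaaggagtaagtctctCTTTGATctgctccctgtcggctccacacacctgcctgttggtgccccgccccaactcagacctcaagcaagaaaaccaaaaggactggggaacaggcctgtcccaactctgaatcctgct
The match in Wnt11 is ATCAAAG, the core on the opposite strand, and a match describes the letters only. The transcripts of both genes overlapped between the groups, as given above.

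**Figure D2:**
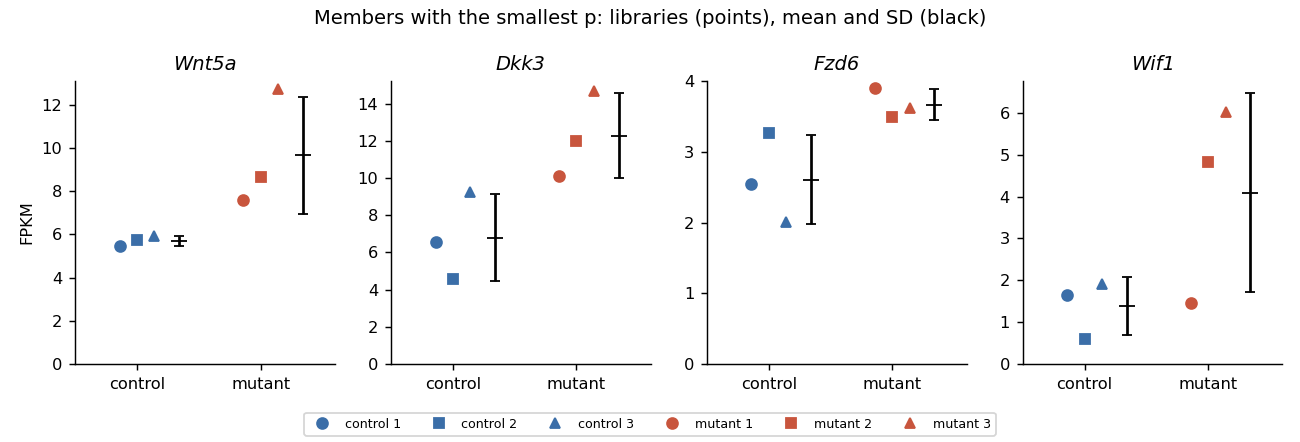
FPKM of Wnt5a, Dkk3, Fzd6 and Wif1 in each library (points, controls blue and mutants red), with the mean and SD of the group in black. For Wnt5a, Dkk3 and Fzd6 every mutant lies above every control, while mutant 1 lies among the controls for Wif1.

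The receptors showed the same order in both groups, apart from a swap of Fzd10 and Fzd6. Fzd2 was the most abundant Frizzled, at 73.7, 42.4 and 73.0 FPKM in controls and 57.4, 69.5 and 71.5 FPKM in mutants. Fzd7, a receptor for canonical Wnts, was at 68.7, 28.9 and 60.4 FPKM in controls and 36.1, 58.8 and 62.8 FPKM in mutants. Fzd1 was at 40.4, 28.6 and 43.2 FPKM in controls and 30.8, 47.8 and 42.9 FPKM in mutants. The ranges of these 3 receptors overlapped with each other in controls, while in mutants that of Fzd2 lay above that of Fzd1. Within every library the order was Fzd2, Fzd7 and Fzd1. Each of the 3 overlapped between groups and was lowest in control 2 with mutant 1 next. Fzd4, a receptor for Norrin as well as Wnts and active in blood vessels, was at 11.6, 14.2 and 12.6 FPKM in controls and 11.7, 16.5 and 17.1 FPKM in mutants (log2 fold change 0.22, SE 0.17).

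Fzd6, a Frizzled of the planar polarity pathway, was the receptor with the smallest p. It lies on chromosome 15 from 39006034 to 39038188 (GRCm38, plus strand). It was at 2.54, 3.26 and 2.01 FPKM in controls and 3.91, 3.49 and 3.62 FPKM in mutants. Every mutant was above every control, by little in the case of control 2. The means were 2.61 ± 0.628 and 3.67 ± 0.214 FPKM, a log2 fold change of 0.52 (SE 0.20), with an unadjusted p of 0.0303 and a limma adjusted p of 0.48. With library weights the adjusted p was 0.0497, and leaving out any library other than control 2 took the unadjusted p past 0.05 (0.125 without control 3, where the log2 fold change was 0.35). The authors' deposited table gave Fzd6 an adjusted p of 0.395. An opposite-strand gene, Gm26704, overlaps it with 2 to 9 reads per library.

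The other 5 Frizzleds overlapped between the groups. Fzd8 was at 7.996, 4.91 and 7.27 FPKM in controls and 7.07, 6.52 and 8.95 FPKM in mutants. Fzd3, a receptor of axon guidance and planar polarity, was at 5.42, 4.08 and 4.08 FPKM in controls and 3.76, 4.27 and 4.58 FPKM in mutants. Fzd10 was at 1.95, 4.65 and 3.51 FPKM in controls and 3.15, 3.86 and 3.41 FPKM in mutants. For each of these 3 the mutant mean lay within the range of the controls, though mutant 3 lay above it for Fzd8 and mutant 1 below it for Fzd3. Fzd9 was at 0.859, 0.435 and 1.06 FPKM in controls and 0.994, 1.08 and 1.09 FPKM in mutants. Fzd5, at 0.537 to 1.13 FPKM in controls and 0.519 to 0.876 FPKM in mutants, was highest in control 2. Over all 10 receptors the sum was 213.7, 132.5 and 207.7 FPKM in controls and 155.8, 212.4 and 216.6 FPKM in mutants, and Fzd2, Fzd7 and Fzd1 held most of it in every library.

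Among the 4 secreted Frizzled-related proteins, Sfrp2 and Sfrp1 were abundant and Sfrp4 and Sfrp5 low. Sfrp2 was at 165, 67.0 and 169 FPKM in controls and 132, 149.8 and 185 FPKM in mutants. Sfrp1 was at 83.5, 29.1 and 93.8 FPKM in controls and 42.0, 59.8 and 97.9 FPKM in mutants. Both bind Wnts outside the cell, and for both the groups overlapped, with control 2 well below the other controls. Their log2 fold changes were 0.32 (SE 0.33) and 0.04 (SE 0.45). Without control 2 these became -0.11 and -0.50. Sfrp4 was at 1.47, 1.52 and 2.15 FPKM in controls and 1.49, 0.702 and 1.86 FPKM in mutants. Sfrp5, a modulator found in ureteric and endodermal epithelia, was at 0.651, 0.651 and 0.857 FPKM in controls and 2.57, 0.629 and 1.71 FPKM in mutants, so that 2 mutants lay above and 1 below every control (log2 fold change of 0.96 with an SE of 0.49, adjusted p = 0.555 by limma).

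Dkk3, a divergent Dickkopf whose role in Wnt signalling is less settled than that of its relatives, was higher in every mutant. It lies on chromosome 7 from 112116017 to 112159057 (GRCm38, minus strand). It was at 6.53, 4.58 and 9.24 FPKM in controls and 10.1, 11.99 and 14.7 FPKM in mutants. The groups did not overlap, though mutant 1 stood only a little above control 3. The means were 6.79 ± 2.34 and 12.3 ± 2.30 FPKM, a log2 fold change of 0.90 (SE 0.25), with an unadjusted p of 0.00714 and a limma adjusted p of 0.312. Leaving out any 1 library gave log2 fold changes of 0.64 (without control 2) to 1.15, with unadjusted p of 0.00115 to 0.0309. In the authors' deposited table the log2 fold change was 1.00 with an adjusted p of 0.000983.

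Dkk1 and Dkk2 bind the Lrp5 and Lrp6 co-receptors. Dkk1 was at 12.2, 9.17 and 9.44 FPKM in controls and 13.8, 10.9 and 12.7 FPKM in mutants, a log2 fold change of 0.29 (SE 0.16), with an adjusted p of 0.583 by limma. Dkk2 was at 16.7, 6.201 and 17.4 FPKM in controls and 9.09, 11.5 and 21.9 FPKM in mutants, a log2 fold change of 0.11 (SE 0.44). Both overlapped between groups, and Dkk2 had the wider spread, with control 2 lowest. Dkk3 made up 18.5%, 23.0% and 25.6% of the summed Dickkopf FPKM in controls and 30.7%, 34.9% and 29.9% in mutants, so its share of the 3 genes was higher in each mutant.

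Wif1, a secreted inhibitor that binds Wnts through its WIF domain, had the largest fold change of the 33 genes with all libraries in the fit, and its groups overlapped. It was at 1.66, 0.609 and 1.92 FPKM in controls and 1.45, 4.82 and 6.03 FPKM in mutants. Mutants 2 and 3 were above every control, while mutant 1 was below controls 1 and 3. The means were 1.39 ± 0.692 and 4.10 ± 2.37 FPKM, a 2.94-fold difference and a log2 fold change of 1.47 (SE 0.59), with an unadjusted p of 0.0367 and a limma adjusted p of 0.49. Without control 2 the log2 fold change was 0.96 and the unadjusted p 0.0911, and without mutant 2 or mutant 3 that p was 0.118 or 0.131. Without mutant 1 the log2 fold change was 2.09 and the unadjusted p of limma 0.00408, and without control 1 or control 3 that p was 0.0435 or 0.0278. In the authors' deposited table the log2 fold change was 2.03 with an adjusted p of 0.00124. The gene spans 121033960 to 121100650 on chromosome 10 (GRCm38, plus strand). Its RefSeq promoter, shown because Wif1 had the largest fold change with all libraries, is at chr10:121033754-121034053 and holds neither of the 2 core motifs on either strand, so no letter is in capitals.
Wif1: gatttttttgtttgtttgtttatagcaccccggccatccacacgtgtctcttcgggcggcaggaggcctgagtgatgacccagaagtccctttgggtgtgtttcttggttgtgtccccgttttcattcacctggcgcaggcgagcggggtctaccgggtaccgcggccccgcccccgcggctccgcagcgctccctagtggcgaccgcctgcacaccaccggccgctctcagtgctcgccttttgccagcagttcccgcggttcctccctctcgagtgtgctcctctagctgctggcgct
The absence of these letters describes this window only.

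With all 6 libraries no tested R-spondin was apart between the groups. Rspo1 was at 45.3, 24.7 and 39.9 FPKM in controls and 30.7, 27.8 and 33.7 FPKM in mutants (log2 fold change of -0.21 with an SE of 0.22, adjusted p = 0.715 by limma). Rspo3 was at 13.8, 5.59 and 13.9 FPKM in controls and 5.55, 11.6 and 14.2 FPKM in mutants (log2 fold change -0.08, SE 0.43). Both raise Wnt signalling through Lgr receptors, and control 2 was the lowest library for Rspo1 and next to the lowest, mutant 1, for Rspo3. Without control 2 the log2 fold change of Rspo1 was -0.47, with every mutant below both controls, an unadjusted p of 0.00625 and an adjusted p of 0.207 by limma. In that fit genotype cannot be told apart from sex, since both remaining controls had almost no Ddx3y. Rspo2 was at 0.0961 to 0.202 FPKM and Rspo4, which was not tested, at 0.0192 to 0.172 FPKM.

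**Figure D3:**
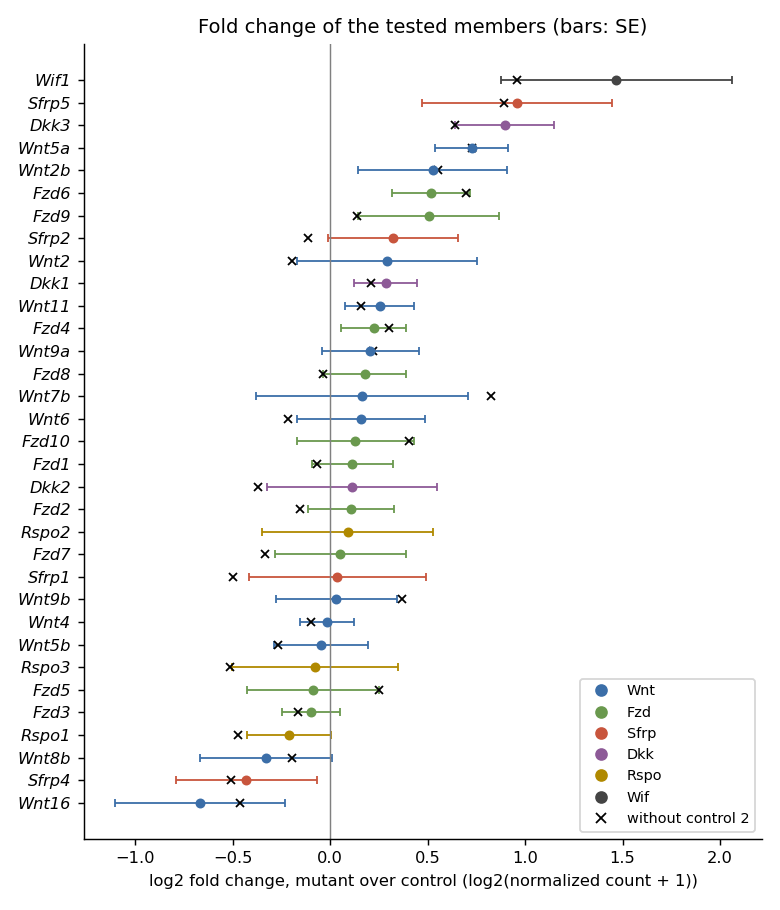
log2 fold change of mutant over control for the 33 tested genes, on the log2(normalized count + 1) scale, with SE bars and colours by family. Crosses give the value without control 2 (none for Rspo2, which then missed the minimum), and 9 genes above 0 with all libraries fall below it (Dkk2, Fzd1, Fzd2, Fzd7, Fzd8, Sfrp1, Sfrp2, Wnt2 and Wnt6).

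As a group, 24 of the 33 tested genes (72.7%) had a positive log2 fold change, against 49.1% of all genes, with a median of 0.13 against -0.01. This rested on control 2. Without it 15 of 32 were positive (46.9%, against 47.1% of all genes) and the median was -0.05, in a fit where genotype and sex cannot be told apart. Control 2 was the lowest of the 6 libraries for 17 of the 33 genes (51.5%, against 28.0% of all genes), and mutant 3 the highest for 14 (11.9% of all genes).

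For all 12 genes that were 2-fold or more off in control 2, mutant 1 departed from its group in the same direction. Smaller departures of control 2 went either way in mutant 1. Fzd1 had log2 ratios of -0.55 in control 2 and -0.56 in mutant 1, and Sfrp5 of -0.21 and 1.12. Dkk2, Fzd7, Fzd9, Rspo3, Sfrp1, Sfrp2, Wif1, Wnt2 and Wnt6 were 2-fold or more lower in control 2 than in the mean of controls 1 and 3, which is 9 of the 33 (27.3%), against 7.24% of all genes. All 9 were also lower in mutant 1 than in the mean of mutants 2 and 3, as were 59.1% of all genes low in control 2. Fzd5, Wnt7b and Wnt9b were 2-fold or more higher in control 2, which is 3 of the 33 against 4.78% of all genes, and all 3 were higher in mutant 1 as well, as were 76.8% of all genes high in control 2. Summed marker levels of several compartments also set these 2 libraries apart. The 6 listed ureteric trunk genes summed to 147 FPKM in control 2 and 181 FPKM in mutant 1, against 59.4 to 97.1 FPKM in the other libraries, with Upk3a listed at 0 in mutant 2. The 8 listed cortical stroma genes summed to 506 FPKM in control 2 and 517 FPKM in mutant 1, against 585 to 750.4 FPKM in the others, and none was at 0. The 7 early nephron genes summed to 286 FPKM in control 2 and 230.01 FPKM in mutant 1, against 191 to 215 FPKM in the others. The 7 nephron progenitor genes did not set the pair apart, with 301.5 FPKM in control 2 and 373 FPKM in mutant 1, against 333 to 438 FPKM in the others. Nor did the 6 ureteric tip genes. They summed to 126 FPKM in control 2 and 156 FPKM in mutant 1, against 115 to 148 FPKM in the others. The part of these compartments in the levels of the Wnt genes was not tested.

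**Figure D4:**
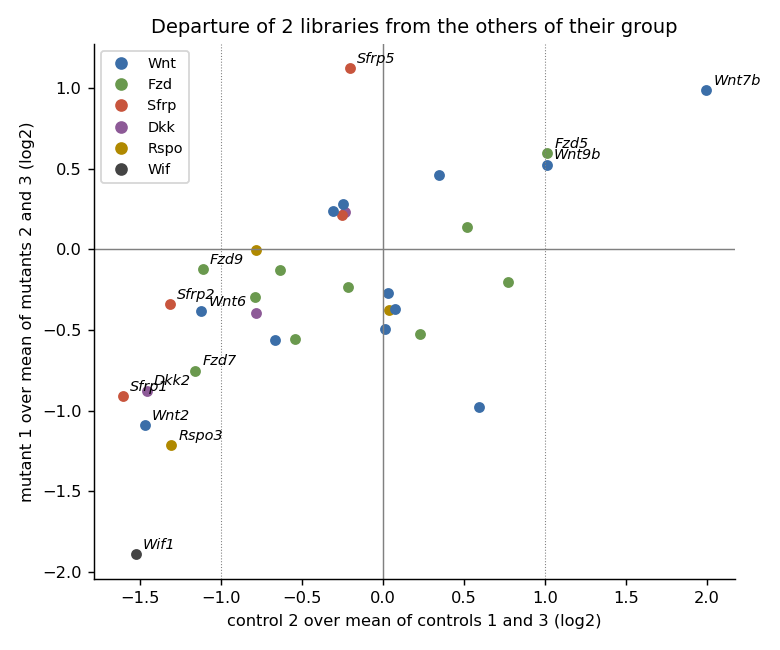
For each tested gene, the log2 ratio of control 2 to the mean of controls 1 and 3 (x axis) and of mutant 1 to the mean of mutants 2 and 3 (y axis), with dotted lines at 2-fold and colours by family. Sfrp1, Dkk2, Wnt2, Rspo3 and Wif1 lie low on both axes and Wnt7b lies high on both.

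Other cell markers differed between the groups themselves. The 8 listed endothelial genes, all with positive fold changes and 4 of them called by limma, summed to 107 to 120.3 FPKM in controls and 205 to 259.9 FPKM in mutants. The 7 listed smooth muscle genes (6 positive, 0 called by limma with 5 at an unadjusted p under 0.05, 4 called higher in the authors' deposited table) summed to 85.0 to 139 FPKM in controls and 159.96 to 222 FPKM in mutants. No gene of either list was at 0. Also higher in every mutant than in any control were the sums of 7 medullary and ureteric stroma genes (150 to 198 against 210.5 to 243 FPKM, 1 called), of 6 macrophage genes (6.20 to 8.28 against 8.65 to 15.7 FPKM, 0 called, 3 at an unadjusted p under 0.05) and of 6 Hedgehog response genes (24.2 to 35.0 against 106 to 118 FPKM, 5 called). All 6 macrophage and all 6 Hedgehog response genes had positive fold changes. Of the 7 stroma genes, 5 had a positive and 2 a negative fold change. Alx1 was lower in every mutant than in any control (3.70, 8.29 and 5.09 FPKM in controls, 1.91, 3.17 and 2.29 FPKM in mutants). The 8 skeletal muscle genes summed to 39.8 to 65.3 FPKM in controls and 15.7 to 20.9999 FPKM in mutants, with 5 called lower by limma. Wnt5a, Dkk3 and Fzd6 were higher in every mutant too, and the part of these lists in their levels was not tested.

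The rest of the pathway was set beside these genes as lists taken from textbook knowledge. Among 24 co-receptor, R-spondin receptor and extracellular modulator genes, 0 were called by limma, 2 were higher and 2 lower at an unadjusted p under 0.05, and the median log2 fold change was 0.06. The authors' deposited table called 2 of them higher (Lgr6 and Gpc3, a glypican) and 1 lower (Apcdd1). For this list and those below, the background at an unadjusted p under 0.05 by limma was 9.63% in either direction. That of the calls in the authors' deposited table was 4.61%. Lgr6, an R-spondin receptor, was at 0.542, 0.370 and 0.280 FPKM in controls and 1.28, 0.985 and 0.749 FPKM in mutants (log2 fold change of 1.34 with an SE of 0.32, adjusted p = 0.186 by limma). Frzb, a secreted Frizzled-related protein outside the symbol rule, was at 8.39, 6.76 and 8.25 FPKM in controls and 4.47, 5.70 and 6.22 FPKM in mutants (log2 fold change of -0.52 with an SE of 0.17, adjusted p = 0.411 by limma). Both were apart between groups, in opposite directions. Apcdd1, a membrane inhibitor of Wnt signalling, was at 9.85, 15.6 and 15.8 FPKM in controls and 6.45, 9.64 and 9.80 FPKM in mutants. Sostdc1, which binds Wnt co-receptors and BMPs, was at 2.03, 9.38 and 1.58 FPKM in controls and 19.9, 4.87 and 8.91 FPKM in mutants and overlapped. Of 7 genes for Wnt export, limma called 0 and 1 was higher at an unadjusted p under 0.05, while the authors' deposited table called 1 lower (Vps35, of the retromer that recycles the Wnt carrier Wls). The gene with the smallest limma p was Porcn, the acyltransferase that lipidates Wnts, at 3.30, 2.04 and 2.67 FPKM in controls and 4.33, 3.56 and 3.43 FPKM in mutants.

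Transducers and feedback genes did not move in 1 direction. Of 27 transducer genes, 26 were tested, limma called 0, and 2 were higher and 1 lower at an unadjusted p under 0.05. The authors' deposited table called 1 higher, Prickle1. Prickle1, a planar polarity protein, was at 11.2, 10.6 and 14.4 FPKM in controls and 14.5, 24.8 and 22.5 FPKM in mutants (log2 fold change of 0.75 with an SE of 0.22, adjusted p = 0.321 by limma). Daam2, a formin of the Wnt pathway, was at 7.22, 5.97 and 6.99 FPKM in controls and 4.22, 5.49 and 5.92 FPKM in mutants. Prickle1 was higher and Daam2 lower in every mutant than in any control. Of 13 feedback and target genes, 12 were tested, limma called 0, and 1 was higher and 3 lower at an unadjusted p under 0.05 (background 9.63% in either direction). The authors' deposited table called 1 lower, Apcdd1. Axin2, a direct target that limits beta-catenin, was at 8.57, 10.4 and 8.46 FPKM in controls and 6.05, 6.404 and 7.33 FPKM in mutants (log2 fold change of -0.47 with an SE of 0.14, adjusted p = 0.357 by limma). Sp5, another direct target, was at 2.99, 2.32 and 3.04 FPKM in controls and 1.80, 1.21 and 1.76 FPKM in mutants (log2 fold change of -0.81 with an SE of 0.25, adjusted p = 0.37 by limma). Lef1, a nuclear partner of beta-catenin and itself a target, was at 8.35, 8.94 and 7.89 FPKM in controls and 9.76, 11.9 and 12.3 FPKM in mutants (log2 fold change of 0.42 with an SE of 0.14, adjusted p = 0.396 by limma). Axin2, Sp5 and Apcdd1 were lower and Lef1 higher in every mutant than in any control, which is 4 of the 12 against a background of 16.7%, and none passed the test of limma over all genes.

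The authors' fold changes for these genes did not always match the deposited library values. Over the 8410 genes whose normalized counts averaged 500 or more, the authors' deposited log2 fold change differed from the log2 ratio of the mutant mean to the mean of all 3 controls by a median of 0.0822, and from the ratio to the mean of controls 2 and 3 by a median of 0.0148. The values given next for single genes are those of limma, a difference of mean log2 values, which is not the ratio used above. Sfrp2 was given 0.66 (adjusted p 0.0509) by the authors' deposited table, against 0.32 here and 0.53 here without control 1. Sfrp1 had 0.48 in the authors' deposited table, against 0.04 here and 0.26 without control 1. Wif1 had 2.03 there, against 1.47 here and 1.67 without control 1. For Sfrp2, Sfrp1 and Wif1 the deposited value lay above both limma values. Why the authors' deposited values lie nearer to those of 2 controls was not tested.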

How the data were processed

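mRNA was sequenced from 3 control and 3 mutant whole kidney samples. Trim Galore, STAR 2.6.0c, HTSeq 0.6.1p2, DESeq2 and mm10 are named in the submitters' processing notes, with no role or order. The deposited table holds FPKM per library, a unit read from its values, since no header names it. Per the file headers it also holds the authors' mean normalized signal, log2 fold change with its standard error, Wald score, and p-value with its adjusted form. Multiplying FPKM by a gene's mean normalized signal over its mean FPKM gave size-factor normalized counts, and each of the 134364 values (100%) was a whole number of reads times a constant of its library (tolerance 1e-06).

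limma 3.58.1 (R 4.3.3, intensity trend, no covariate) was fitted to log2(normalized count + 1) of all genes with a value of at least 10 in 3 libraries. Fold changes on that scale understate the change of low genes. The fit was checked on simulated data. No count model was fitted here. Genes with a mean of at least 1 FPKM in either group, or an unadjusted p under 0.05, get their library values. Pathway genes named are up to 4 per list with the smallest p. The members and lists were chosen with earlier results of these data known. Positions are from GENCODE M21 (GRCm38, the same assembly as mm10) and promoters from RefSeq. Alternatives were other pseudocounts, filters, scalings, weights, voom, a replicate block and leaving out each library.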

Additional observations from a re-analysis of the deposited data

How the results depend on the processing

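The absence of calls among these genes held in every alternative other than library weights, which called 2 (Wnt5a, log2 fold change 0.83, and Fzd6, 0.71), and in every fit that left out 1 library. Over all genes, 52 were called in the fit described, 33 at a minimum of 1 FPKM in 3 libraries, 32 without the intensity trend, 380 with library weights, and 6 (without mutant 2) to 149 (without control 2) when 1 library was left out. Library weights also gave 7 of the Wnt genes an unadjusted p under 0.05 and called 1 gene in each of the receptor partner, transducer and feedback lists. Scaling to total depth left 5 genes with groups apart. Leaving out 1 library gave 2 to 5 genes at an unadjusted p under 0.05, 4 to 7 with groups apart, 15 to 24 with a positive fold change, and a median of -0.05 to 0.28. The cause of these shifts was not tested, beyond the fewer libraries in the last. The shares of all genes at an unadjusted p under 0.05 or with groups apart are not given for these settings. Those counts are therefore not read as results about the Wnt genes. The adjusted p of limma ranged over all settings from 0.0416 to 0.587 for Wnt5a, from 0.130 to 0.686 for Dkk3, from 0.0497 to 0.846 for Fzd6 and from 0.129 to 0.693 for Wif1, and all 4 kept a positive fold change. With library weights the log2 fold change changed sign for Dkk2 (-0.020), Fzd2 (-0.015), Fzd3 (0.019), Fzd5 (0.026), Fzd7 (-0.016), Rspo2 (-0.10) and Sfrp1 (-0.16), with total depth scaling for Wnt4 (0.020), and with voom for Wnt9b (-0.035). Leaving out 1 library changed the sign for 18 genes, whose lowest and highest log2 fold changes were Dkk2 -0.37 to 0.38, Fzd1 -0.068 to 0.30, Fzd10 -0.22 to 0.41, Fzd2 -0.16 to 0.24, Fzd3 -0.17 to 0.038, Fzd5 -0.29 to 0.25, Fzd7 -0.33 to 0.30, Fzd8 -0.035 to 0.32, Rspo2 -0.14 to 0.20, Rspo3 -0.51 to 0.32, Sfrp1 -0.50 to 0.34, Sfrp2 -0.11 to 0.55, Wnt2 -0.20 to 0.65, Wnt4 -0.11 to 0.075, Wnt5b -0.27 to 0.14, Wnt6 -0.22 to 0.37, Wnt7b -0.18 to 0.83 and Wnt9b -0.21 to 0.37. A replicate block called 17 genes, none of them a Wnt gene of the rule. The numbers are not taken as pairs, since same-numbered libraries correlated in their departures from the group means at 0.000811, -0.0981 and 0.309 and control 2 correlated best with mutant 1 (0.234). Mutant 2, the shallowest library, limits the genes under 1 FPKM.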
